A study of Mus musculus with 3 samples.

Results

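PLZF (promyelocytic leukaemia zinc finger), the receptors of natural killer (NK) cells and a few genes that go with them were followed in 3 libraries of CD4+ T cells labelled Th1. The set held 9 genes (Zbtb16, Klrb1c, Klrd1, Klrk1, Klrc1, Klrg1, Cd1d1, Cx3cr1 and Zeb2) of 23337 gene symbols in the files. The members were picked by name and chosen by their scaled levels in these same 3 libraries, tumour against lymphoid, so that their levels are given as a description with no test. Each of the 9 symbols had 1 row in the files.

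The tumour group was 1 library of cells taken from B16-F10 tumours, grown from a transplantable melanoma line of C57BL/6 mice. The lymphoid group was 2 libraries titled as spleen, while their tissue label adds lymph nodes, draining ones among them. Wild-type mice of the strain C57/Bl6j, 7 weeks of age, gave the cells of both groups, and ribosomal RNA was removed from total RNA. The labels do not say how cells were sorted as Th1, whether animals were pooled, or whether the lymphoid libraries had separate animals or animals with tumours as their source, so that p-values reflect only how far these libraries vary, which may be technical.

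PLZF, the product of Zbtb16, is the transcription factor that directs the innate-like programme of natural killer T (NKT) cells. NKT cells carry a T cell receptor that recognises lipids held by CD1d, many of them are CD4+, and in C57BL/6 mice they share surface receptors with NK cells. They release cytokines quickly and use T-bet, the factor that also defines Th1 cells.

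The receptor genes sit close together. Klrb1c (ENSMUSG00000030325.16, chromosome 6, 128778485 to 128789215, GRCm38) encodes NKR-P1C, the NK cell surface antigen by which NKT cells of this strain are commonly recognised. Klrd1 (129591782 to 129598775) encodes CD94, which pairs with NKG2A, the inhibitory product of Klrc1 (129666015 to 129678973). Between them lies Klrk1 (129610323 to 129623864), which encodes the activating receptor NKG2D. Gaps of 11.5 kb and 42.2 kb separate the last 3 genes, and 802.6 kb lie between Klrb1c and Klrd1. Klrg1 (122270596 to 122282882), an inhibitory receptor of terminally differentiated T and NK cells, is on the same chromosome 6496 kb before Klrb1c. Of the other members, Zbtb16 (48654297 to 48836222) and Cx3cr1 (119901616 to 120069879) are on chromosome 9, Cd1d1 (86995834 to 86999441) on chromosome 3 and Zeb2 (44983632 to 45117395) on chromosome 2.

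For 5 of the 9 members RefSeq promoters of GRCm38.p6 were at hand. The 250 bases before the start are printed for the 3 receptors of the chromosome 6 cluster and for Cx3cr1, since these genes held most of the signal and the largest difference between the groups. Capitals mark TGTGGT, a core motif of RUNX factors, on either strand (ACCACA on the printed one). All 4 genes are on the minus strand, and the sequences run 5′ to 3′ along it, from chr6:128788642-128788891 (Klrb1c), chr6:129623865-129624114 (Klrk1), chr6:129678974-129679223 (Klrc1) and chr9:120068297-120068546 (Cx3cr1).
Klrb1c: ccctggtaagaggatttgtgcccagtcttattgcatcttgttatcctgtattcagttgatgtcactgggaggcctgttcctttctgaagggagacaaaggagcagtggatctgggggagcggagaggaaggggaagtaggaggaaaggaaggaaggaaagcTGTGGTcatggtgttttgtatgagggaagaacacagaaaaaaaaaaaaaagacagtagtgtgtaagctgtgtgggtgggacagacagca
Klrk1: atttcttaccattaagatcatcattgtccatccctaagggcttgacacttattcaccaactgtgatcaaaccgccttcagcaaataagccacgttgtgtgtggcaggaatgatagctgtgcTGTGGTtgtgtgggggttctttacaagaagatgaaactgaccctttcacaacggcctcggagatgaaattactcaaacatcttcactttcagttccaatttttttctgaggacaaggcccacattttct
Klrc1: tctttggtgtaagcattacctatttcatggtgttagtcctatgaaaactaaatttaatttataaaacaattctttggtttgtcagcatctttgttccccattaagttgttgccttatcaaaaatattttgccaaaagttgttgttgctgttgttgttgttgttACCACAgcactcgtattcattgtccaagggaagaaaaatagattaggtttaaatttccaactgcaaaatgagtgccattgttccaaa
Cx3cr1: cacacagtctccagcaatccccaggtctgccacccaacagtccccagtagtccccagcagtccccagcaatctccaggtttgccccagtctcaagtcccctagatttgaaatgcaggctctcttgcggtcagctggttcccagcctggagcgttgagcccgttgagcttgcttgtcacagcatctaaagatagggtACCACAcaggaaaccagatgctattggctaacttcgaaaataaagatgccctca
Each of the 4 held the RUNX letters once, at 89, 129, 87 and 54 bases before the start in the order printed. Of 32851 promoter windows of the same length, 14% held them. None of the 4 windows held TCACACC (T-box factors such as T-bet, in 3.33% of windows), CACCTG (an E-box bound by ZEB proteins, 17.2%) or CGGAAG (ETS factors, 13.6%), searched on both strands, and 4 windows of Zeb2 held none of the 4 motifs. These are matches of letters, and no binding was measured.

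Values are FPKM (fragments per kilobase of transcript, relative to all fragments of the library), divided by a size factor for each library (0.58 for the tumour library, 1.29 and 1.33 for lymphoid libraries 1 and 2), which is called scaled FPKM. The factors are median-of-ratios values, which set the typical gene equal in all libraries. Tests and shares refer to the 9800 genes that passed a filter, a mean over the 3 libraries of 1 FPKM or more. Their median tumour minus lymphoid difference in log2(FPKM + 1) was -0.96 as deposited and -0.01 after scaling, so that directions given here are relative to the typical gene. Depth was estimated from the steps between low values as 3270000 fragments in the tumour library, against 11480000 and 15630000 in the lymphoid libraries. Over 1440 odorant and vomeronasal receptor genes, which are genes of sensory neurons, the mean was 0.662 scaled FPKM in the tumour library, against 0.0583 and 0.1005, and the 95th and 99th percentiles were 1.49 and 2.80 in the tumour library. The tumour group has 1 library, and fewer cells of a type cannot be told apart from less RNA per cell in these bulk samples.

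Zbtb16 was expressed in all 3 libraries. It was at 8.56 scaled FPKM in the tumour library, against 10.0 and 10.2 in the lymphoid libraries. The tumour value was the lowest, and 68.4% of tested genes were at or below it there, against 74.5% and 74.2% in the lymphoid libraries. From about 83.0 estimated fragments the tumour value has a 95% Poisson interval of 6.82 to 10.6 scaled FPKM, which holds both lymphoid values. Set against Cd3e within each library, which needs no scaling, Zbtb16 was 7.69% of the Cd3e level in the tumour library, against 7.94% and 9.60%. Relative to Cd4 the gap was wider, at 11.6% in the tumour library, against 14.8% and 17.2%.

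Klrb1c was the most abundant member in lymphoid library 1, and its product marks most NKT cells of this strain. Klrb1c was at 13.4 scaled FPKM in the tumour library, against 23.6 and 20.1 in the lymphoid libraries. The tumour value was below both, with differences of -0.77 and -0.55 on the log2(scaled FPKM + 1) scale, while the lymphoid libraries differed from each other by -0.22. The interval of the tumour value, 10.4 to 17.1 from about 66.8 fragments, held neither lymphoid value. If all reads came from the shortest coding transcript the estimate is 15.6 fragments and the interval, 7.63 to 21.95, holds the value of lymphoid library 2. Relative to Cd3e the gene was at 12.1% in the tumour library, against 18.7% and 19.0%. Its ratio to Tbx21, the gene of T-bet, was 1.04 in the tumour library, against 1.31 and 0.998, with Tbx21 itself at 12.9 scaled FPKM, against 18.0 and 20.2. The tumour library was thus below both lymphoid libraries relative to Cd3e and between them relative to Tbx21. The annotated gene Gm44511 shares 413 exonic bases with Klrb1c on the same strand, so that reads of the pair could be split between them.

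Klrc1 and Klrd1, whose products form 1 receptor, stood on opposite sides of the lymphoid values. Klrc1 was at 15.7 scaled FPKM in the tumour library, against 21.1 and 20.3 in the lymphoid libraries. Klrd1 was at 13.1 scaled FPKM in the tumour library, against 8.95 and 9.22, and as deposited it was lower there, at 7.57 FPKM against 11.6 and 12.3. The direction of Klrd1 therefore depended on scaling, and that of Klrc1 did not. Relative to Cd3e, Klrd1 was at 11.7% in the tumour library, against 7.10% and 8.70%. Within a library the ratio of Klrc1 to Klrd1 needs no scaling, and was 1.20 in the tumour library, against 2.36 and 2.20 in the lymphoid libraries. The tumour value of Klrd1 rested on about 22.8 fragments, with an interval of 8.26 to 19.7 that holds both lymphoid values. That of Klrc1 rested on about 59.2, with an interval of 12.0 to 20.3 that holds the value of lymphoid library 2 and not that of lymphoid library 1.

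Klrk1 was nearly level across the groups. It was at 12.8 scaled FPKM in the tumour library, against 11.8 and 11.9 in the lymphoid libraries, and the tumour interval of 10.1 to 16.03 held both. As deposited it was lower in the tumour library, at 7.44 FPKM against 15.2 and 15.8, so that its direction too depended on scaling. Relative to Cd3e it was at 11.5% in the tumour library, against 9.34% and 11.2%, and relative to Cd4 at 17.4%, against 17.3% and 20.0%. Hcst, which encodes the adaptor DAP10 that NKG2D signals through, was more abundant, at 46.4 scaled FPKM in the tumour library, against 36.8 and 40.3. The ratio of Klrk1 to Hcst was 0.276 in the tumour library, against 0.320 and 0.294.

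**Figure D1:**
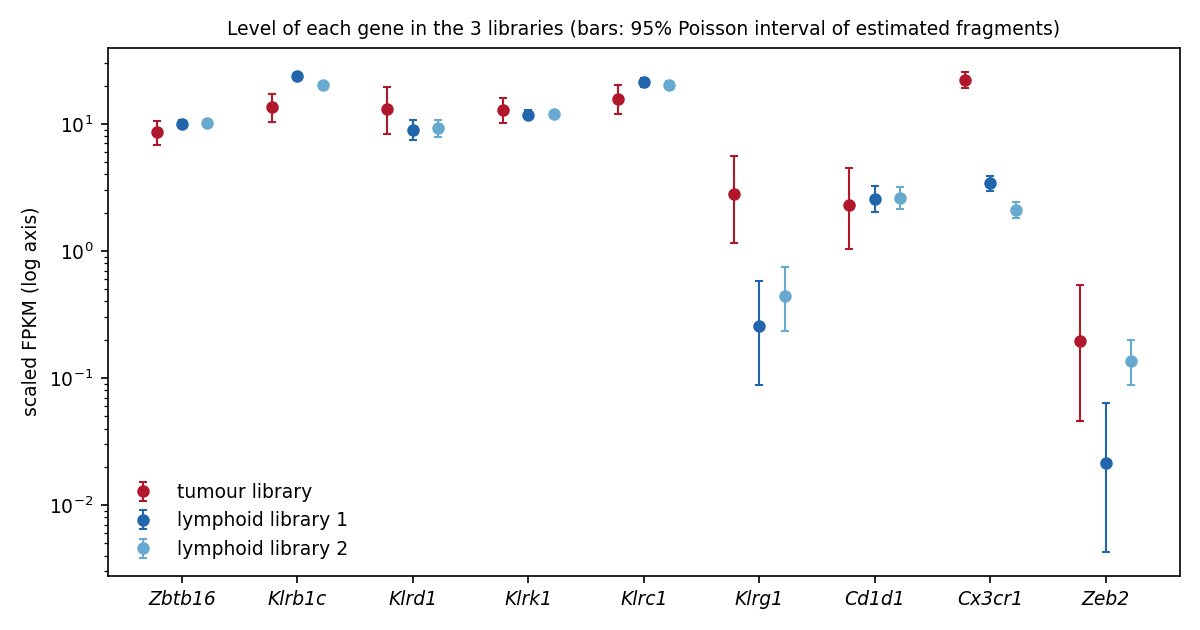
Level of each of the 9 genes (x axis) as scaled FPKM on a log axis, with 1 point for each library and bars for the 95% Poisson interval of its estimated fragments, which covers counting error only. Cx3cr1 at 22.3 and Klrg1 at 2.78 in the tumour library stand clear of the lymphoid points, and the tumour interval of Klrb1c, 10.4 to 17.1, lies below them.

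Klrg1 was low everywhere. It was at 2.78 scaled FPKM in the tumour library, against 0.257 and 0.438 in the lymphoid libraries, and did not pass the filter of a mean of 1 FPKM. The tumour value was above both, on about 7.5 estimated fragments, with an interval of 1.16 to 5.61. The level of 2.78 was close to the 99th percentile of the odorant and vomeronasal receptor genes in that library, 15 of which (1.04%) were as high or higher. In the lymphoid libraries 0.764% and 0.694% of them reached the level that Klrg1 had there.

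Cd1d1 encodes CD1d itself, the molecule that presents lipids to NKT cells. It was at 2.31 scaled FPKM in the tumour library, against 2.57 and 2.62 in the lymphoid libraries. The tumour value was the lowest, from about 8.5 fragments, and its interval of 1.03 to 4.46 held both lymphoid values. Of the receptor genes used as background, 1.81% were as high or higher in the tumour library, against 0.208% in each lymphoid library.

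Cx3cr1, the receptor for fractalkine and a marker of cytotoxic effector T cells as well as of monocytes and NK cells, differed most. It was at 22.3 scaled FPKM in the tumour library, against 3.40 and 2.11 in the lymphoid libraries. The tumour value was above both by far, 6.56 and 10.5 times as high, and it was also the higher one as deposited, at 12.9 FPKM against 4.40 and 2.82. The difference was 2.65 on the log2(scaled FPKM + 1) scale, while the lymphoid libraries differed by -0.50. About 189.8 tumour fragments gave an interval of 19.2 to 25.7. Of the tested genes in the tumour library 89.2% were at or below this level, against 36.8% and 23.1% in the lymphoid libraries. Set against Cd3e, Cx3cr1 was at 20.0% in the tumour library, against 2.70% and 1.99%. The annotated antisense gene Gm33858 shares 78 exonic bases with it.

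Zeb2, a zinc finger repressor that acts with T-bet in terminally differentiated CD8 T and NK cells, was near 0. It was at 0.196 scaled FPKM in the tumour library, against 0.0215 and 0.136 in the lymphoid libraries, and did not pass the filter. In the tumour library 36.5% of the background receptor genes were at or above this level, against 13.1% and 7.08%, so that its tumour value was not apart from background and no direction is given for it. Zeb2os, on the opposite strand, shares 653 exonic bases with it.

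**Figure D2:**
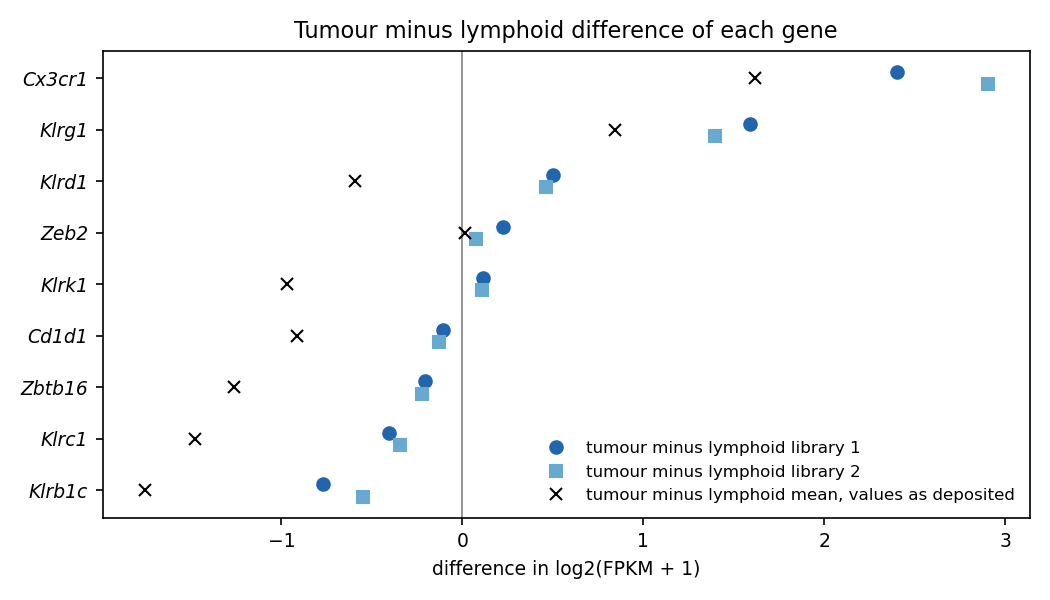
Difference between the tumour library and each lymphoid library for each gene, in log2(scaled FPKM + 1), with crosses for the difference from the lymphoid mean in values as deposited. Klrd1 and Klrk1 lie above 0 after scaling and below 0 as deposited, while Klrb1c, Klrc1, Zbtb16 and Cd1d1 lie below 0 and Cx3cr1 and Klrg1 above 0 both ways.

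Of the 9 members, 5 were higher in the tumour library than in both lymphoid libraries and 4 were lower than both. The 5 include Zeb2 and Klrg1, which did not pass the filter, and Zeb2 was not apart from background. As deposited 2 were higher and 6 lower. Among the 7 that passed the filter the counts after scaling were 3 and 4, and over all 9800 tested genes 41.3% were above and 42.6% below both lymphoid libraries, so that lying outside the lymphoid pair was the usual case. On scaled FPKM + 1, Cx3cr1 and Klrg1 were at least 2-fold higher than each lymphoid library and 0 members were 2-fold lower. Of the 7 members past the filter 1 was 2-fold higher, where 6.28% of tested genes were that much higher and 2.82% that much lower. These counts use the values by which the members were chosen, and nothing is read from them. The median log2 difference of the 7 members past the filter was -0.12, against -0.01 for all tested genes, and with the other 2 members added it was 0.11.

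**Figure D3:**
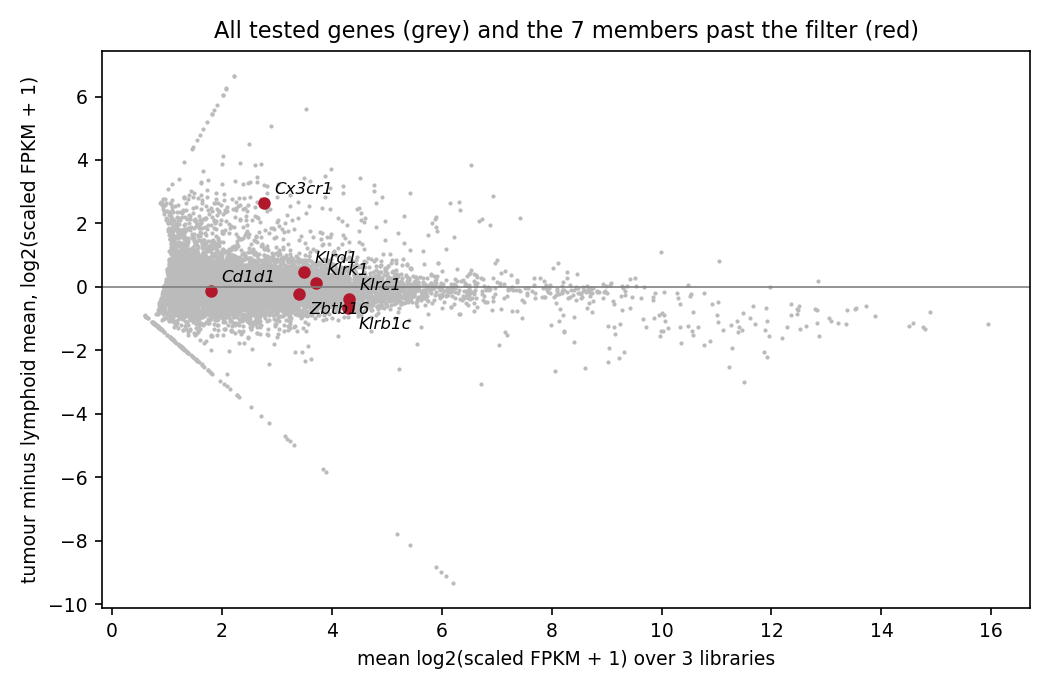
Mean level (x axis) and tumour minus lymphoid difference (y axis), both in log2(scaled FPKM + 1), for each of the 9800 tested genes in grey and for the 7 members that passed the filter in red. Cx3cr1, at 2.65, lies away from the bulk of genes, and the other 6 lie inside it.

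The levels of members in the same library had an order. In the tumour library it ran Cx3cr1 (22.3), Klrc1 (15.7), Klrb1c (13.4), Klrd1 (13.1), Klrk1 (12.8), Zbtb16 (8.56), Klrg1 (2.78), Cd1d1 (2.31) and Zeb2 (0.196) in scaled FPKM, and the intervals of Klrc1, Klrb1c, Klrd1 and Klrk1 overlapped. The interval of Cx3cr1 overlapped those of Klrc1 and Klrd1, and that of Zbtb16 those of Klrb1c, Klrd1 and Klrk1. In the lymphoid libraries Klrb1c (mean 21.9 ± 2.47, SD, n = 2) and Klrc1 (20.7 ± 0.635) led and exchanged places between the libraries, followed by Klrk1 (11.8 ± 0.0549), Zbtb16 (10.1 ± 0.113), Klrd1 (9.09 ± 0.190), Cx3cr1 (2.76 ± 0.909), Cd1d1 (2.59 ± 0.0350), Klrg1 (0.348 ± 0.128) and Zeb2 (0.0787 ± 0.0810). Cx3cr1 and Cd1d1 changed order between the lymphoid libraries and were not apart beyond their spread.

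Likeness to other genes was measured as the Euclidean distance between centred log2(scaled FPKM + 1) profiles over the 3 libraries, among 1280 tested genes with a range of at least 1. Closest to Cx3cr1 were Mlph (distance 0.0504), Gm20753 (0.0897) and A430033K04Rik (0.102). Mlph encodes melanophilin, a carrier of pigment granules in melanocytes. It was at 17.4 scaled FPKM in the tumour library, against 2.59 and 1.58. Closest to Klrb1c were Ccng1 (0.169), Snora36b (0.176) and Foxp3 (0.179). Ccng1 encodes a cyclin induced by p53 and Foxp3 the factor of regulatory T cells, at 5.08 scaled FPKM in the tumour library, against 11.3 and 8.93. The other members varied less, and their nearest genes lay farther away, Dffb, 4933416M07Rik and Mrrf for Klrd1 (0.362 to 0.375), Ccng1, Actn1 and Snora36b for Klrc1 (0.428 to 0.435), Gm5129, Snord32a and Ccng1 for both Zbtb16 (0.564 to 0.569) and Cd1d1 (0.628 to 0.639), and Pja1, Pgap2 and BC005624 for Klrk1 (0.631 to 0.637). These other members had log2 ranges of 0.115 to 0.500, below the range of 1 asked of the candidates. Their larger distances follow from that rule, and genes as level as these members were not searched. With 3 libraries such a profile holds little information, and many genes share it.

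Calls for the genes beside the members came from limma, fitted over all 9800 tested genes on log2(scaled FPKM + 1) with Benjamini-Hochberg adjustment at 0.05. It called 12.7% of tested genes higher and 9.17% lower in the tumour library, 1246 and 899 genes, while as deposited 465 were called higher and 7620 lower. Its error rests on how far the 2 lymphoid libraries differ, with 1 residual degree of freedom, and the lone tumour library is assumed to vary like them. As deposited, 6 of 7 tested NK receptor genes, 9 of 9 adaptors, 4 of 5 ligands, 26 of 29 NKT genes, 11 of 13 PLZF partners and 11 of 18 terminal effector genes were called lower. With the tumour library's counting error added, 3.63% of the 9181 genes with a transcript length were called higher and 0.229% lower.

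Among 28 other NK receptor genes in the files 7 passed the filter and 0 were called either way by limma (2 higher and 1 lower at an unadjusted p under 0.05, and 0 with counting error added). Their median log2 difference was 0.07, against -0.01 for all tested genes. Cd226, a costimulatory receptor of T and NK cells, was the most abundant, at 26.3 scaled FPKM in the tumour library, against 45.4 and 39.4 (limma adjusted p = 0.0625). Klrb1f, an activating relative of Klrb1c, was at 7.24, against 5.12 and 5.09 (limma adjusted p = 0.0939). Klrc2 and Klrc3, close copies of Klrc1 whose products are activating, were at 4.94 and 2.65 in the tumour library, against 5.91 and 1.56 in lymphoid library 1 and 3.91 and 0.544 in lymphoid library 2. How the authors' counting split reads between such copies is not given in the sources used here, so the values of Klrc1, Klrc2 and Klrc3 carry that uncertainty, as do those of the Klrb1 and Klra families. Klra genes, which encode the Ly49 receptors of NK cells and some NKT cells, were low, with Klra9 highest at 1.38 in the tumour library, against 0.506 and 0.550. In the tumour library 14 of the 28 genes were listed at 0, against 11 and 5.

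**Figure D4:**
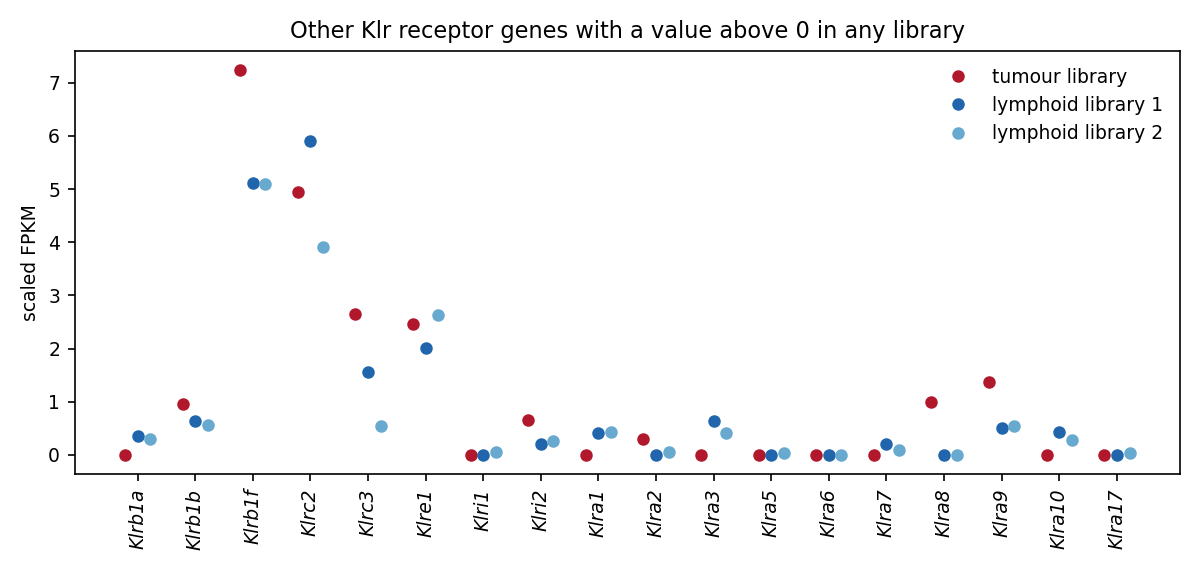
Scaled FPKM of the other Klr genes that were above 0 in any library, with 1 point for each library. Klrb1f and Klrc2 stand above the rest in every library. Klre1 comes next in the lymphoid libraries, while in the tumour library Klrc3 (2.65) lies above Klre1 (2.46). Klrc3 is at 0.544 in lymphoid library 2, and the Klra genes stay under 1.5.

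Adaptors that pass on the signals of these receptors were called in 0 of 9 tested genes by limma (0 either way at an unadjusted p under 0.05, and 0 with counting error added), with a median of -0.04. Cd247, the zeta chain of the T cell receptor, was the most abundant, at 50.1 scaled FPKM in the tumour library, against 40.3 and 50.6. Tyrobp and Fcer1g, adaptors that NK and myeloid cells use, did not pass the filter. Tyrobp was at 2.14, against 0.706 and 0.103, and Fcer1g at 2.68, against 0.235 and 0.255, on about 2.4 and 3.5 tumour fragments.

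Ligands of the receptors had 1 higher and 0 lower calls among 5 tested, with a median of 0.22. H60b, a ligand of NKG2D, rose to 7.65 scaled FPKM in the tumour library, against 3.91 and 2.52, by 1.06 with SE 0.23 (limma adjusted p = 0.0289). The call ended with counting error added (limma adjusted p = 0.278), and as deposited the difference was 0.08. H2-T23, the gene of Qa-1 that CD94 and NKG2A recognise, was at 52.4, against 40.2 and 45.7, and Clec2d, a ligand of NKR-P1 receptors, was at 96.0, against 168.2 and 148.3, both without a call (limma adjusted p = 0.335 and 0.0649). The Raet1 genes, further ligands of NKG2D, are near-identical copies, and no direction is given for them.

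Genes of NKT differentiation and of the CD1d pathway had 3 higher and 3 lower calls among 29 tested (0 with counting error added), with a median of -0.07. Icos, a costimulatory receptor, rose by 1.21, to 41.0 scaled FPKM in the tumour library, against 19.1 and 15.5. Myb, a transcription factor of early NKT precursors, rose by 1.10, and Id3, an inhibitor of E proteins, by 0.69, though as deposited the differences of Icos, Myb and Id3 were 0.07, 0.09 and -0.29 and 0 genes of the list were called higher. Ifng fell to 4.53 in the tumour library, against 12.9 and 12.0 (log2 difference -1.28, SE 0.16, limma adjusted p = 0.00535), on about 10.4 fragments. Cxcr6, a chemokine receptor abundant on NKT cells, fell to 53.8, against 103.1 and 92.3 (-0.85), and Zbtb7b, which encodes ThPOK and sets CD4 identity, to 7.01, against 12.3 and 13.2 (-0.78). Id2, which NKT and Th1 cells both use, was the most abundant, at 116.9, against 204.2 and 189.9, without a call (limma adjusted p = 0.0539). Slamf6 and Sh2d1a, the receptor and adaptor by which NKT cells are selected, were at 14.0 and 25.1, against 18.5 and 24.3 in lymphoid library 1 and 14.5 and 20.7 in lymphoid library 2. Gata3, a factor of early and NKT2 cells, was at 13.4, against 19.1 and 17.9. The 10 receptor segments listed for NKT and MAIT cells, among them Trav11 and Traj18 of the invariant NKT receptor, were not among the rows used here, so that the receptor itself was not analysed here.

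Genes of proteins known to act with PLZF or to resemble it had 1 higher and 0 lower calls among 13 tested (0 with counting error added), with a median of -0.14. The call was Bcl6, a BTB zinc finger repressor of follicular helper cells, which rose to 6.80 scaled FPKM in the tumour library, against 2.50 and 2.29 (log2 difference 1.20, SE 0.15, limma adjusted p = 0.00522, and 0.0675 with counting error added). Cul3, the ubiquitin ligase scaffold that binds PLZF, was at 29.8, against 42.0 and 39.5 (limma adjusted p = 0.143).

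The terminal effector list, in which Cx3cr1, Klrg1 and Zeb2 are usually placed and which was searched without them, had 5 higher and 3 lower calls among 18 tested (2 higher and 0 lower with counting error added), with a median of 0.23. Gzmb, the gene of granzyme B, rose by 2.64 to 11.4 scaled FPKM in the tumour library, against 0.839 and 1.16. Bhlhe40, a stress- and activation-induced factor, rose by 1.57, Itgam, the integrin CD11b, by 1.43 and Serpinb9, an inhibitor of granzyme B, by 0.89, while Zeb1, the relative of Zeb2, rose by 0.68. As deposited the differences of Serpinb9 and Zeb1 were -0.12 and -0.37. Fgl2 fell by 0.78, the cystatin gene Cst7 fell by 0.70 and the perforin gene Prf1 fell by 0.63. The calls of Gzmb and Bhlhe40 were left with counting error added (limma adjusted p = 0.0116 and 0.0155), and those of the other 6 were lost (limma adjusted p from 0.0551 to 0.496). S1pr5, the exit receptor of terminal effector cells, did not pass the filter, at 0.840, against 0.0811 and 0.0382. Its tumour value rested on about 3.98 estimated fragments and lay under the 95th percentile of the background receptor genes there, 1.49.

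Genes that define CD4+ T cells were high in all 3 libraries. Cd4 was at 73.9 scaled FPKM in the tumour library, against 67.9 and 59.3, Cd3e at 111.3, against 126.1 and 106.0, Cd3g at 144.4, against 187.6 and 215.6, and Cd5 at 37.8, against 43.5 and 41.0. Of 11 tested genes of this list 0 were called (0 at an unadjusted p under 0.05, and 0 with counting error added). The Th1 list had 0 higher and 1 lower call of 9 tested, Ifng, and that call was lost with counting error added. Tbx21 was at 12.9, against 18.0 and 20.2, and Cxcr3 at 44.6, against 56.0 and 49.1, both without a call.

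Defining markers of other cell types were under 3 scaled FPKM in every library, except the CD8 T cell marker Cd8b1, at 4.77 in the tumour library. The NK cell list, 14 genes, summed to 22.97 scaled FPKM in the tumour library, against 9.82 and 10.2, with 3 of 14 genes at 0, against 4 and 2. Of these sums Klrb1f made up 7.24, 5.12 and 5.09, and of 2 tested genes 0 were called by limma (1 higher at an unadjusted p under 0.05, and 0 with counting error added). Ncr1, the receptor NKp46 by which NK cells are told from T cells, was at 1.47 in the tumour library on about 4.2 fragments, against 0 and 0.169. Eomes was at 1.78, against 0.609 and 0.724, and Klre1 at 2.46, against 2.01 and 2.64. The macrophage and monocyte list, 18 genes, summed to 68.2, against 55.4 and 50.04, with 4 of 18 at 0, against 9 and 3. Ctss (35.2, against 32.3 and 30.2) and Ccr2 (18.0, against 21.1 and 17.8) made up most of it. Its defining genes in the tumour library were Lyz2 at 0.524, Csf1r at 0.133, Adgre1 at 0.640, C1qa at 2.55 and Cd14 at 1.08, against 0 to 0.0946 in the lymphoid libraries. Itgam was the 1 call of 3 tested genes. The part of macrophages and monocytes in the level of Cx3cr1 was not tested.

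CD8 T cells, dendritic cells, B cells and melanocytes were covered in the same way. Cd8b1 rose to 4.77 scaled FPKM in the tumour library, against 0.494 and 0.783 (log2 difference 1.82, SE 0.18, limma adjusted p = 0.00255, and 0.0739 with counting error added), and Cd8a was at 0.503, against 0.0647 and 0.0304. The 12 dendritic cell genes summed to 6.47, against 3.18 and 2.58, with Cd74 highest at 1.34, against 1.78 and 1.24, and with Flt3 at 0.425, Zbtb46 at 0.525 and Itgax at 0 in the tumour library. The 10 B cell genes summed to 8.65, against 2.56 and 2.46, and the 11 melanocyte genes to 6.05, against 1.39 and 1.62. Among the B cell genes Cd22 rose to 5.76, against 1.45 and 1.56 (limma adjusted p = 0.00288, and 0.0389 with counting error added), while Ms4a1, Cd79a and Pax5 were at 0 in the tumour library. Of the 1 tested gene each, 0 were called among dendritic cell genes (0 at an unadjusted p under 0.05) and melanocyte genes (1 higher at an unadjusted p under 0.05), and 0 of 2 among gamma delta T cell genes (0 at an unadjusted p under 0.05). Of the melanocyte genes Pmel was at 1.49, against 0.798 and 0.835, Dct at 0.465, against 0 and 0.0635, Tyrp1 at 0.192, against 0 in both, and Mlana at 0 in all 3. Of gamma delta T cell genes 7 of 17 were in the files and summed to 16.6, against 18.6 and 17.3, of which Maf, also of CD4 T cells, made up 13.5, 16.3 and 15.7, and Sox13 was at 0.440, against 0 in both. Over the 24 defining markers of all these other cell types the median was 0.525 in the tumour library, against 0.0247 and 0.0545, with 5 at 0, against 12 and 8. Among the background receptor genes of the tumour library the median was 0, with 58.1% at 0. Their 99th percentile was 2.80, which Cd8b1 alone of the 24 markers exceeded there. In the lymphoid libraries the 99th percentiles were lower, 0.235 and 0.331. Klre1, Eomes, Cd8b1, Pmel and Zbtb46 exceeded them in both, Tyrobp did so in lymphoid library 1, and the remaining markers did not. The markers' median was thus above that of the background genes in the tumour library. It was below the background mean of 0.662, which is an unlike measure, since 5 background genes were at or above the level of Cx3cr1. The markers' median was also above the background median in the lymphoid libraries (0.0247 against 0, and 0.0545 against 0.0284). The part of these cell types in the levels of the 9 genes was not tested.

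**Figure D5:**
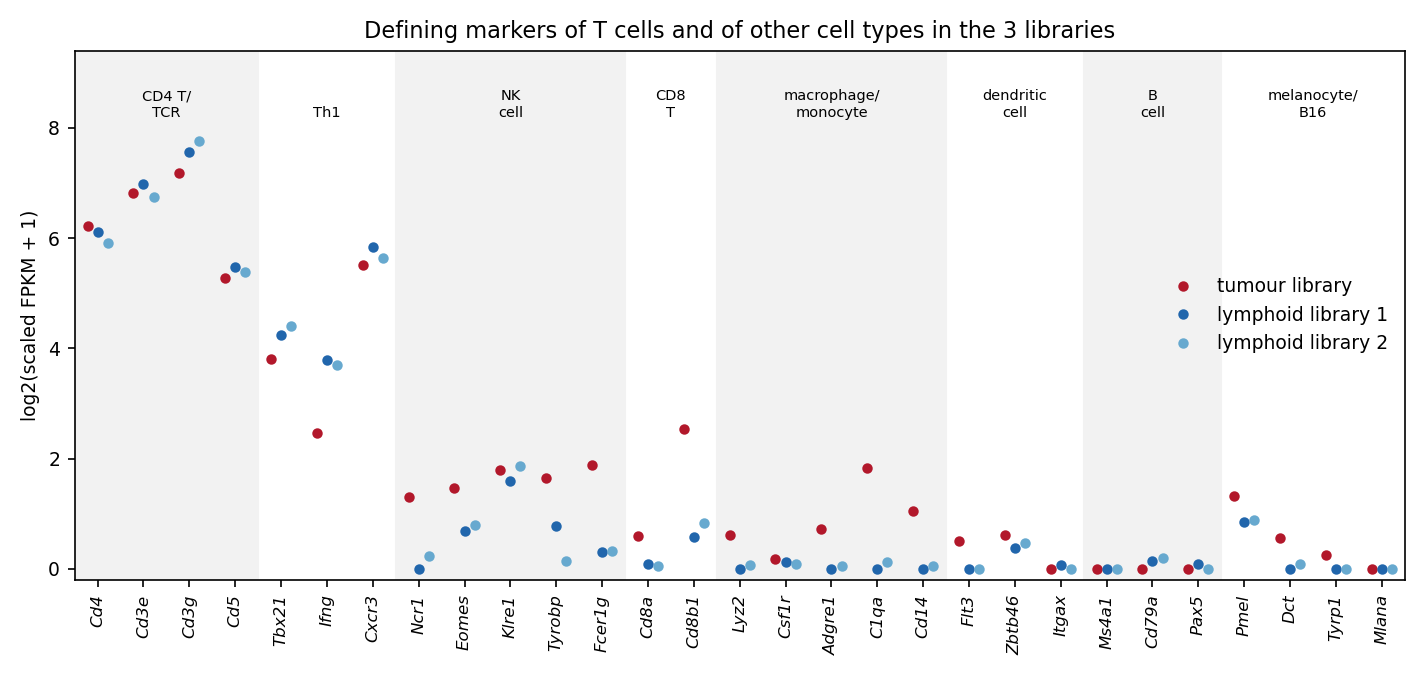
Level in log2(scaled FPKM + 1) of defining markers of T cells, Th1 cells and 6 other cell types, with 1 point for each library. Cd4, Cd3e, Cd3g and Cd5 lie above 5 in all libraries, while the markers of other cell types lie under 3, with the tumour points mostly above the lymphoid ones.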

How the data were processed

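Total RNA of CD4+ T cells labelled Th1 was sequenced in 1 tumour and 2 lymphoid libraries, as stranded paired-end libraries per the labels' protocols. The deposited values were taken as FPKM, a unit inferred from the file headers and from sums that differ between libraries. Kallisto, DESeq2 and mm10 appear in the submitters' processing notes with neither version nor role, and which program, annotation and filters made the values was not stated there. Members and gene lists were chosen with earlier results of these data known. The genes named were the 9 members, the defining markers and the called genes of each list (at most 4 in each direction), or its most abundant gene where none was called, and the 3 nearest profiles of each member. Klrc2, Klrc3, Klra9, Slamf6, Sh2d1a, Gata3, Cul3, H2-T23, Clec2d, Id2, S1pr5, Hcst, Ctss and Ccr2 were picked after their values were seen where that rule did not name them. Some genes of the lists are not reported here by name.

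Of 23832 rows, 252 symbols had several, of which the one highest on average was used (23337 symbols). Size factors came from genes averaging 1 FPKM or more. Limma (3.58.1, R 4.3.3), with a mean-variance trend, was fitted across all these genes on log2(FPKM + 1), with a pseudocount of 1, and was tested on simulated data. Depth was estimated from genes with 1 transcript of at least 1000 nt in GENCODE M21 and under 2 FPKM, as the product of FPKM and length shared by the most genes within 3%. It was 305.7 in the tumour library and 87.1 and 64.0 in the lymphoid libraries. Fragments use the longest coding transcript, and Poisson intervals cover counting error only. Counting error was added to the squared SE for the tumour library. The alternatives were other scalings, pseudocounts and filters, no trend, summed rows, added counting error and leaving out each lymphoid library.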

Additional observations from a re-analysis of the deposited data

How the results depend on the processing

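The 5 members above and 4 below both lymphoid libraries kept these counts with total scaling. As deposited 2 were above and 6 below, and Klrd1 and Klrk1 changed sign. The other settings could not change these counts. They use no pseudocount, each member has 1 row, and all 9 lay outside both lymphoid libraries. The log2 differences moved by at least the SD of the lymphoid libraries for 4 of 9 members with total scaling. With pseudocounts of 0.1 and 5 that held for 5 and 8. In these 3 settings 0 members changed sign, and summed rows and leaving out either lymphoid replicate moved 0. Over all tested genes 1246 were called higher and 899 lower. The counts were 333 and 21 with counting error added, 211 and 191 among genes averaging 5 FPKM or more, 6362 and 512 with no filter, and 465 and 7620 as deposited. Total scaling gave 1192 and 1159. At least 2-fold higher were 615 genes and 276 were lower, against 239 and 3746 as deposited, 251 and 84 with a pseudocount of 5, 176 and 146 among genes averaging 5 FPKM or more, and 2466 higher with no filter. A pseudocount of 0.1 gave 545 lower. Without either lymphoid replicate the 2-fold counts were 694 to 710 higher and 374 to 384 lower. Limma calls without 1 lymphoid library were not made, since no residual degree of freedom is left. No paired analysis was possible because the tumour library carries no replicate number. Added counting error and the filters change the error or the genes tested, and the other causes were not tested. Depth limits Cd1d1, Klrg1 and Zeb2, each under 10 estimated tumour fragments.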
